A study of Mus musculus with 12 samples.

Results

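The transcripts of 9 transcription factors that set hepatocyte identity, Hnf4a, Cebpa, Nr1h4, Nr1i2, Nr1i3, Nr5a2, Foxa2, Foxa3 and Prox1, were followed in mouse livers carrying cholangiocarcinoma (CCA, a bile duct-type cancer) and in healthy livers. The members are a list of known hepatocyte regulators, matched by symbol to the Ensembl identifiers of the count tables, and all 9 were found among 21807 genes. All 9 had enough reads to be tested at both stages. RNA sequencing of poly(A) RNA covered 12 libraries in 4 groups of 3, all from C57BL/6J mice. The 2 groups labelled NICD/myr-AKT, called NICD1/Akt here, were liver tissue labelled as CCA tumor. These mice had received 10 µg of a plasmid for NICD1, the active intracellular part of the Notch1 receptor, 10 µg of a plasmid for myr-AKT, a membrane-bound active form of the kinase AKT, and a Sleeping Beauty transposase plasmid, by hydrodynamic tail vein injection (HTVI), and were sacrificed at 2 weeks (libraries 33, 34 and 35) or 3 weeks (libraries 1, 2 and 3). The 2 control groups were labelled WT and came from healthy liver. They carried the labels 2 weeks post-HTVI (libraries 30, 31 and 32) or 3 weeks post-HTVI (libraries 10, 11 and 12). The protocol describes controls as mice without injection, so whether they were injected is not settled. The methods name 5-week-old males at injection. The injection delivers plasmids to a fraction of the hepatocytes, so a tumor library mixes transformed cells with the rest of the liver. The protocol names no plasmid-free injection for controls. Whether libraries within a group represent different animals was not given in the sources used here, and the spread behind each p-value may be technical.

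Hepatocytes keep their identity through a small set of factors that bind each other's genes as well as those of liver enzymes and plasma proteins. HNF4A is a nuclear receptor that many hepatocyte promoters and enhancers depend on. C/EBP alpha supports metabolic genes and restrains proliferation, the FOXA proteins open chromatin at liver enhancers, and PROX1 is needed for hepatocyte specification. FXR (Nr1h4), PXR (Nr1i2), CAR (Nr1i3) and LRH-1 (Nr5a2) are nuclear receptors that tie gene expression to bile acids, foreign compounds and phospholipids. Several of these factors are not confined to hepatocytes, since bile duct cells express Foxa2, Hnf4a is also an intestinal and renal gene, and Prox1 marks lymphatic endothelium. Notch signalling directs liver progenitors to the bile duct fate, and forced Notch and AKT activity can turn hepatocytes into CCA, which is the setting of these livers.

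Libraries held 13136892 to 19594839 counts. Levels are given in CPM, the read count over the library total after TMM scaling, which aligns the 12 libraries on their bulk of genes. Notch1, whose intracellular part the plasmid encodes, ranged from 324 to 412 CPM in the 3-week tumors (42.1 to 45.5 in controls of that stage), and Akt1 from 594 to 850 CPM (74.5 to 85.3). The library labelled control 2 weeks 32 went against its label: Notch1 was 106 CPM and Akt1 381 there, against 49.1 to 53.8 and 90.1 to 90.9 in the other 2 controls of that stage, and its 7 cholangiocyte markers summed to 2046 CPM against 87.4 and 89.3. Library 35 stood apart from the other NICD1/Akt livers of 2 weeks, with Akt1 at 927 CPM against 285 and 325 and cholangiocyte markers at 4738 CPM against 1185 and 1375. The Y-linked gene Ddx3y lay between 52.2 and 126 CPM in library 32 and in all 6 libraries of 3 weeks, and between 0 and 0.398 in the other 5 libraries of 2 weeks, although all mice were described as male. A difference between stages therefore coincides with a difference in Y-linked expression, and these cannot be told apart.

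The promoters of 5 members are shown to give the sequence before the starts of members the results turn on. The first 3 belong to the members with the largest falls at 3 weeks. Nr1h4 and Nr1i2 are shown as examples of windows with the words marked below, which windows of Nr5a2, Foxa2 and Prox1, not printed, also hold. Each is the 250 bases before a RefSeq transcription start (GRCm38.p6, 5′ to 3′ on the gene's strand). Hnf4a has 2 starts in that annotation and the window of the downstream start is printed. Capitals mark matches, on either strand, to GTTAAT (an HNF1 core), TATAAA (a core promoter box), AGGTCA (a nuclear receptor core) or TGTTTGC (a forkhead word).
Hnf4a, chr2:163546905-163547154, plus strand: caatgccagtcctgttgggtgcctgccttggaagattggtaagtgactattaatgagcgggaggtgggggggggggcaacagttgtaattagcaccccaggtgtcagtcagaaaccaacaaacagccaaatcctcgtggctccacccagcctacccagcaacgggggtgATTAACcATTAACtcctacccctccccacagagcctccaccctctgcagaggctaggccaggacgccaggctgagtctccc
Cebpa, chr7:35119043-35119292, plus strand: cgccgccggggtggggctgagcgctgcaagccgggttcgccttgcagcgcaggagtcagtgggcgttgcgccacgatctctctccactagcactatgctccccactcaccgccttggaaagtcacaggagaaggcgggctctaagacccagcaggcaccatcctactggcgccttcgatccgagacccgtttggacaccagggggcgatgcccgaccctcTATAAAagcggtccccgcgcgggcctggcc
Foxa3, chr7:19023540-19023789, minus strand: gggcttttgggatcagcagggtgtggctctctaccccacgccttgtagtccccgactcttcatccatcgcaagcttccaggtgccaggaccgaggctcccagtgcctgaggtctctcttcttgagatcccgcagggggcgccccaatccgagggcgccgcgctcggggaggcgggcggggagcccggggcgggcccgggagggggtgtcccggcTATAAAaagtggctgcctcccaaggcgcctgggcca
Nr1h4, chr10:89506659-89506908, minus strand: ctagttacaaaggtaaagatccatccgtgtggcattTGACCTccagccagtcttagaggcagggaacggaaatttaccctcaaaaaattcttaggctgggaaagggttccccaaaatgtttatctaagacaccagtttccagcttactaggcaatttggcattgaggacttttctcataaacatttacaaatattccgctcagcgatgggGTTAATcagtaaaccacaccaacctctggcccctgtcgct
Nr1i2, chr16:38294825-38295074, minus strand: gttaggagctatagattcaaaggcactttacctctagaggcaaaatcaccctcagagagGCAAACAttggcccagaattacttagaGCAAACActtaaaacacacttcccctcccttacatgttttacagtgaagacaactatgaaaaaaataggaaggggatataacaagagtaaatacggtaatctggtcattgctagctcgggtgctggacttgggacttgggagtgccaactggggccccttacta

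The Hnf4a window held 2 HNF1 cores, whose first bases lay 81 and 74 bases before the start, and the other Hnf4a window, at the upstream start, held none of the words. The Nr1h4 window held 1 HNF1 core 40 bases and 1 nuclear receptor core 214 bases before the start. Cebpa and Foxa3 each held a TATA box, 30 and 36 bases before the start, and Nr1i2 held the forkhead word at 191 and 164 bases. Among 32851 windows of the same length, GTTAAT was found in 6.43%, TATAAA in 12.4%, AGGTCA in 14% and TGTTTGC in 4.3%. Over the 14 windows of the 9 members, GTTAAT was in 4, TATAAA in 5, and AGGTCA and TGTTTGC in 2 each. The related forkhead word TGTTTAC was in none of the 14 (3.17% of all windows) and the C/EBP word TTGCNNAA in 1, of Nr5a2 (9.56%). These matches are descriptions of letters and do not locate binding.

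At 3 weeks the NICD1/Akt livers held less of most of the 9 factors. In the fit of that stage's 6 libraries, Foxa3 fell to 25.9% of the control level, Hnf4a to 32.8% and Cebpa to 40.5%. The falls of Nr1h4, Nr1i3 and Nr5a2 were smaller. Nr1i2 and Foxa2 did not pass the test, and Prox1 had a positive fold change that did not pass either. In edgeR's quasi-likelihood test, with adjustment over 13408 genes and a threshold of adjusted p under 0.05, 6 of the 9 fell and 0 rose with TMM scaling, whereas with library size only 3 fell and 1 rose. Of all genes tested, 33.1% fell and 38.9% rose. The groups did not overlap for 7 of the 9, all lower in NICD1/Akt, where 40.3% of all genes were lower without overlap. The members' median log2 fold change was -0.80, against 0.06 over all genes. In bulk tissue, fewer hepatocytes and less RNA of a factor per hepatocyte cannot be told apart, and 7 of 7 cholangiocyte markers rose beside these falls (summed level 92.9 to 135 CPM in controls and 3501 to 4121 in NICD1/Akt).

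**Figure D1:**
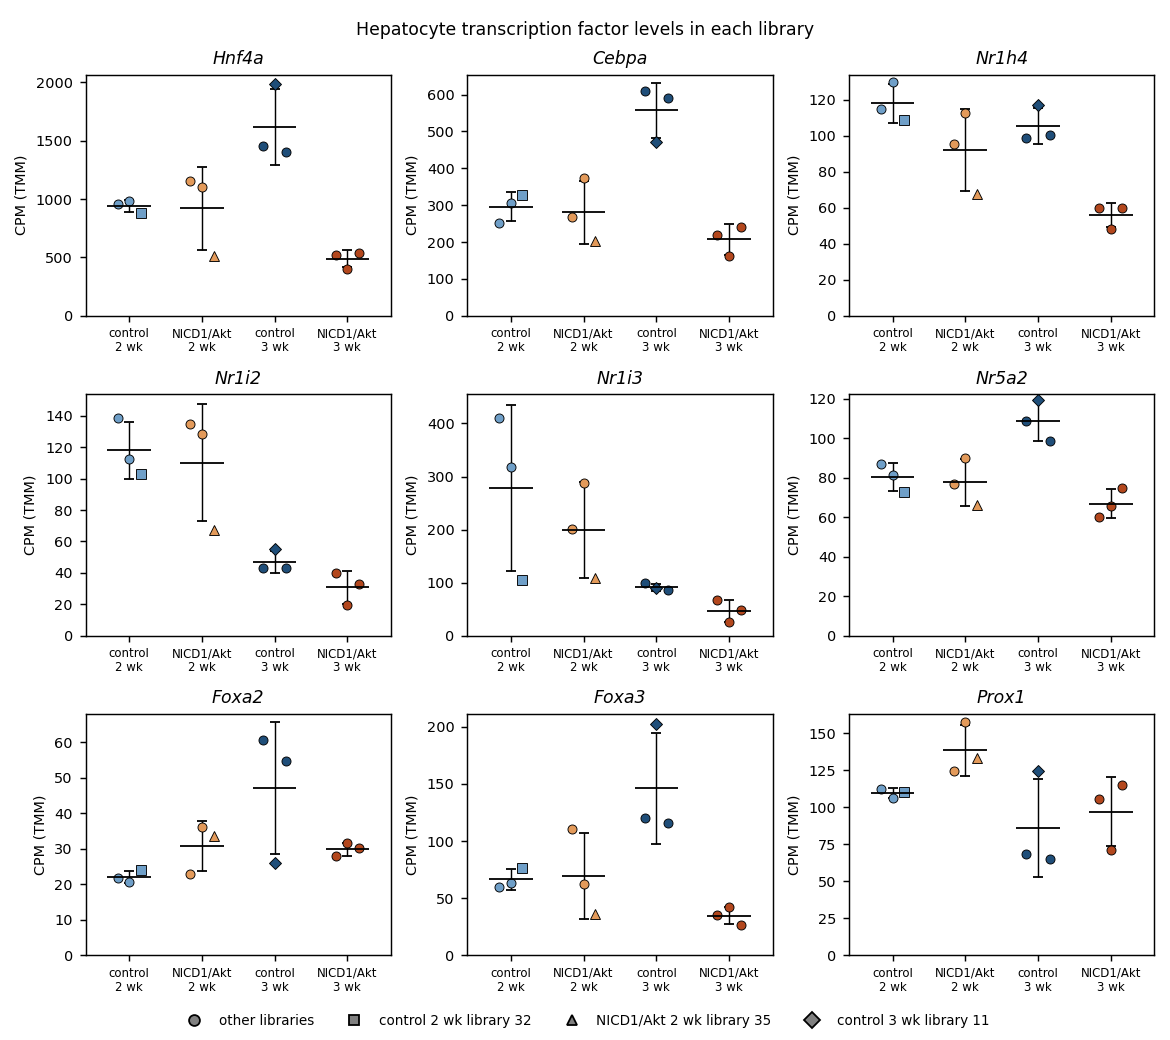
Level of each of the 9 transcription factors (CPM after TMM scaling, linear axes from 0) in the 12 libraries, by group; horizontal lines are group means and bars 1 SD (n = 3). At 3 weeks, NICD1/Akt points lie below all control points in 7 panels, from Hnf4a to Nr5a2 and in Foxa3; squares, triangles and diamonds mark libraries 32, 35 and 11.

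Hnf4a, the central nuclear receptor of the set, was at 1454, 1989 and 1404 CPM in control libraries 10, 11 and 12 and, in NICD1/Akt libraries 1, 2 and 3, at 521, 403 and 538 CPM. Each tumor library lay far under the lowest control. The log2 fold change was -1.61 ± 0.18 (SE), 3.05 times lower in NICD1/Akt (adjusted p = 9.434e-05).

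Cebpa, which encodes C/EBP alpha, was at 609, 472 and 590 CPM in controls and at 219, 161 and 242 CPM in NICD1/Akt livers. The groups were again apart, with control 11 the lowest of the controls. Its log2 fold change was -1.31 ± 0.18 (adjusted p = 0.0002247), 2.47 times lower.

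Foxa3, the FOXA protein that in adult liver acts beside its paralogs on metabolic genes, was at 120, 202 and 116 CPM in controls and at 35.3, 41.98 and 26.9 CPM in NICD1/Akt livers. Control 11 was the highest of the 6, and the tumor libraries, all under the controls, spread 1.56-fold. The log2 fold change of -1.95 ± 0.24 (adjusted p = 0.000152) was the largest fall among the 9, and without control 11 it was -1.65 (adjusted p = 0.0001124).

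Foxa2, its paralog and a pioneer factor of endoderm development, was at 60.5, 25.9 and 54.7 CPM in controls and at 27.9, 31.5 and 30.1 CPM in NICD1/Akt livers. The tumor libraries lay close together, under controls 10 and 12 but above control 11. With all 6 libraries the log2 fold change was -0.54 ± 0.27 (adjusted p = 0.0978). Without control 11 it was -0.84 ± 0.10 (adjusted p = 0.0001859), so this library decided the call.

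Nr1h4, the bile acid receptor FXR, was at 98.7, 117 and 100.7 CPM in controls and at 59.7, 48.2 and 59.7 CPM in NICD1/Akt livers. All tumor libraries were lower than every control, with a log2 fold change of -0.80 ± 0.12 (adjusted p = 0.0003818), the median of the 9.

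Nr5a2 (LRH-1, a receptor for phospholipids that supports bile acid and glucose metabolism) was at 109, 119 and 98.4 CPM in controls and at 60.1, 65.6 and 74.5 CPM in NICD1/Akt livers. The groups stayed apart in a narrow range, and the log2 fold change of -0.59 ± 0.11 (adjusted p = 0.001747) was the smallest of the 6 falls.

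Nr1i3, the receptor CAR that induces drug-metabolizing enzymes, was at 98.6, 89.7 and 85.5 CPM in controls and at 66.2, 25.1 and 48.0 CPM in NICD1/Akt livers. Controls lay close together while the tumor libraries spread 2.64-fold, and NICD1/Akt differed by a log2 fold change of -0.86 ± 0.29 (adjusted p = 0.0265). It lost the threshold without control 10 (adjusted p = 0.0723) or without NICD1/Akt library 3 (adjusted p = 0.0534).

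Nr1i2, the receptor PXR with which CAR shares ligands and target genes, was at 42.9, 54.9 and 42.8 CPM in controls and at 40.0, 19.3 and 32.9 CPM in NICD1/Akt livers. The groups did not overlap, but library 1 lay just under the lowest control. The log2 fold change was -0.49 ± 0.24 (adjusted p = 0.0972), and -0.73 (adjusted p = 0.0254) without library 1.

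Prox1 was at 68.4, 124 and 64.9 CPM in controls and at 106, 70.8 and 115 CPM in NICD1/Akt livers. Controls 10 and 12 were lower than every tumor library and control 11 higher than all. The log2 fold change was 0.30 ± 0.27 (adjusted p = 0.343), and 0.65 ± 0.20 (adjusted p = 0.0199) without control 11. The markers of lymphatic endothelium, where Prox1 is also expressed, summed to 55.6 to 84.5 CPM in controls and 78.2 to 98.05 in NICD1/Akt livers. Between these groups mean Pdpn went from 0.31 to 33.5 CPM, Flt4 from 56.8 to 39.7 and Lyve1 from 11.5 to 13.4. Of the 3 tested, Pdpn rose, Flt4 fell and Lyve1 did not pass (2 rose and 0 fell with library size only, and Flt4 lost its call without control 10 or 12 or NICD1/Akt library 2 or 3), and the part of these cells in the Prox1 level was not tested.

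Without control 11, 8 of the 9 passed the test, 7 lower and Prox1 higher, where 31.8% of all genes were lower and 38.1% higher. Library 11 also differed from controls 10 and 12 over all genes more than those differed from each other (a mean chi-square per gene of 21.5 and 24.2, against 4.77). Replicate pairs in the other groups lay between 11.9 and 130, so controls 10 and 12 were the closest pair of the series. The fits without control 11 rest on this close pair. With library size only, the median of all genes moved to 0.77 on the log2 scale, 9076 genes rose and 1287 fell against 5218 and 4432 with TMM, and among the members 3 fell (Hnf4a -0.91, Cebpa -0.61, Foxa3 -1.23) and Prox1 rose (0.99), while Nr5a2, called lower with TMM, stood at 0.12 and did not pass. Relative to that median the fold changes were -1.68 for Hnf4a, -1.38 for Cebpa, -2.00 for Foxa3, -0.86 for Nr1h4 and 0.23 for Prox1, close to the TMM values.

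**Figure D2:**
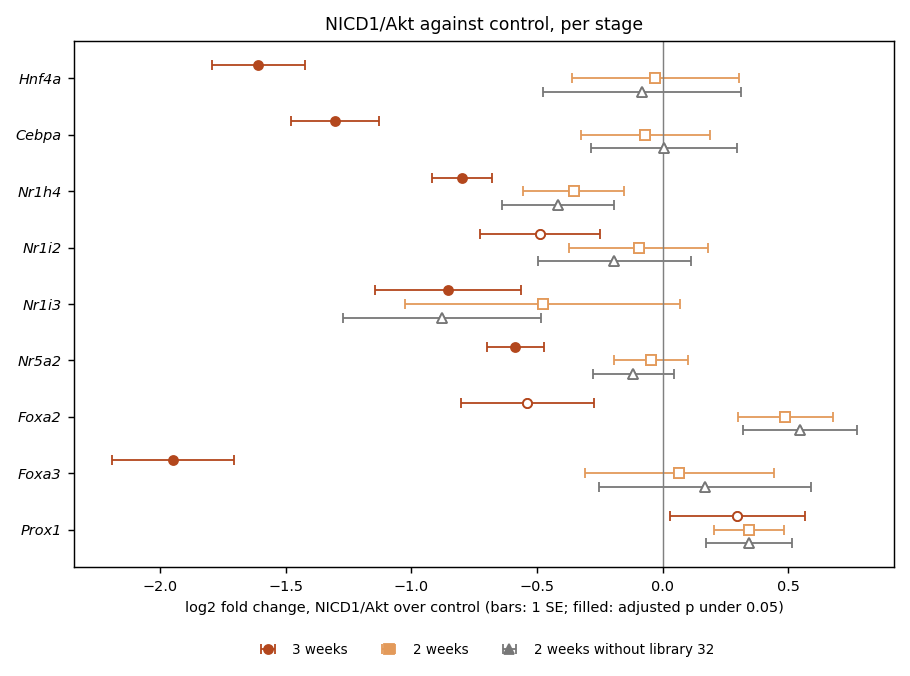
Log2 fold change of NICD1/Akt over control for each factor at 3 weeks (circles), at 2 weeks (squares) and at 2 weeks without control library 32 (triangles), with bars of 1 SE; filled symbols passed adjusted p under 0.05. At 3 weeks 6 factors have filled symbols left of 0, from -1.95 for Foxa3 to -0.59 for Nr5a2, and at 2 weeks no symbol is filled.

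At 2 weeks none of the 9 factors passed the test, and their values mostly overlapped between NICD1/Akt and control livers. The members' median log2 fold change was -0.05. No gene passed at this stage in edgeR's quasi-likelihood test (0 of 13041), where 8.59% had an unadjusted p under 0.05. DESeq2 called 13 genes higher and 14 lower and edgeR's likelihood ratio test 7 and 5, with no member among them. The groups could differ by moderate amounts without being detected, since the SE reached 0.55 (Nr1i3).

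Only 2 of the 9 had an unadjusted p under 0.05 at 2 weeks. Prox1 was at 112, 106 and 110 CPM in controls 30, 31 and 32 and, in NICD1/Akt libraries 33, 34 and 35, at 125, 158 and 133 CPM. It was the only member whose groups did not overlap, higher in all 3 tumor libraries, as were 7.38% of all genes (log2 fold change 0.34 ± 0.14, adjusted p = 0.52). Foxa2 was at 21.6, 20.8 and 23.9 CPM in controls and at 22.9, 36.2 and 33.4 CPM in NICD1/Akt livers. Library 33 lay within the controls and the other two above them (log2 fold change 0.49 ± 0.19, adjusted p = 0.52).

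In most of the other members the tumor libraries spread more widely than the controls. Hnf4a was at 961, 983 and 883 CPM in controls and at 1152, 1100 and 511 CPM in NICD1/Akt livers, so libraries 33 and 34 lay above the controls and library 35 in the range of the 3-week tumors. The same library was the lowest of the 6 for Nr1h4, with 67.7 CPM against 95.6 and 113 in the other tumors and 109 to 130 in controls. It was also the lowest for Cebpa (202 CPM, with 268 and 372 in libraries 33 and 34 and 252 to 327 in controls). In libraries 33, 34 and 35 Foxa3 was at 110, 62.4 and 36.1 CPM, with controls at 59.4 to 76.5 CPM. Nr1i2 was at 135, 129 and 67.3 CPM in those tumors and at 103 to 138 in controls. Library 35 was thus low in every one of these factors, and it also had the lowest hepatocyte marker sum of its stage (70350 CPM, against 155888 and 163321 in the other tumors). Nr5a2 ranged from 73.0 to 87.1 CPM in controls and from 66.1 to 89.7 in NICD1/Akt livers.

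Nr1i3 showed the widest spread in controls, at 411 and 318 CPM in libraries 30 and 31 and at 106 CPM in library 32. NICD1/Akt libraries were at 201, 288 and 108 CPM. Library 32 was lower than every other library of 2 weeks. The log2 fold change was -0.48 ± 0.55 with library 32 and -0.88 ± 0.40 without it (adjusted p = 0.303). Leaving out library 32 left the other members with log2 fold changes between -0.42 (Nr1h4) and 0.55 (Foxa2), and 0 of the 9 passed there or without any other library.

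The effect of NICD1/Akt differed between the stages for 5 of the 9 factors, each with a more negative fold change at 3 weeks. In the contrast of both effects over all 12 libraries, 5 members passed as lower and 0 as higher, where 15.8% of 13829 genes passed as lower. The differences were -2.13 ± 0.51 for Foxa3 (adjusted p = 0.0141), -1.70 ± 0.40 for Hnf4a (adjusted p = 0.0139) and -1.35 ± 0.33 for Cebpa (adjusted p = 0.0151). Those of Foxa2 (-1.14 ± 0.38, adjusted p = 0.0431) and Nr5a2 (-0.65 ± 0.19, adjusted p = 0.0288) were less firm. For Nr1h4, Nr1i2, Nr1i3 and Prox1 the difference did not pass, with values from -0.56 to -0.16. Without library 32, Hnf4a, Cebpa and Foxa3 passed (10.9% of all genes were then lower), while Nr5a2 (adjusted p = 0.0607) and Foxa2 (adjusted p = 0.0655) did not. Under upper quartile scaling the median of all genes moved to 0.21, 2633 genes passed as higher and 1124 as lower against 2078 and 2180 with TMM, and the same 3 members passed.

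The controls themselves differed between the stages. From 2 to 3 weeks, controls rose in Foxa3 (log2 difference 1.14 ± 0.36, adjusted p = 0.029), Foxa2 (1.09 ± 0.27, adjusted p = 0.0096), Cebpa (0.91 ± 0.23, adjusted p = 0.0109) and Nr5a2 (0.44 ± 0.14, adjusted p = 0.0274). They fell in Nr1i3 (-1.61 ± 0.50, adjusted p = 0.0273) and Nr1i2 (-1.33 ± 0.30, adjusted p = 0.0055). Hnf4a, at 883 to 983 CPM and then 1404 to 1989, did not overlap between the stages but missed the threshold (0.78 ± 0.28, adjusted p = 0.0507). Over all genes, 17.4% were higher and 20.4% lower in controls of 3 weeks. Mean Nr1i2 in controls was 118 ± 18.2 CPM (SD, n = 3) at 2 weeks and 46.9 ± 6.97 at 3 weeks, a gap larger than either tumor effect on this gene.

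Without library 32, Nr1i3 fell in controls (-2.02 ± 0.40, adjusted p = 0.0037), Nr1i2 fell (-1.44, adjusted p = 0.0062), Cebpa, Foxa2 and Foxa3 rose, and Nr5a2 missed the threshold (0.35, adjusted p = 0.0912). Without control 11, Foxa3 (0.83, adjusted p = 0.115), Nr1i3 (adjusted p = 0.0743) and Nr5a2 (adjusted p = 0.093) missed it and Prox1 fell (-0.72, adjusted p = 0.0201). Controls of the stages differed in Ddx3y as described, except library 32, the only control of 2 weeks with Ddx3y. Its Nr1i3 (106 CPM) lay near the 3-week controls (85.5 to 98.6) and its Nr1i2 (103 CPM) above them (42.8 to 54.9). Stage and Y-linked expression cannot be told apart in the controls, and without library 32 they coincide fully.

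**Figure D3:**
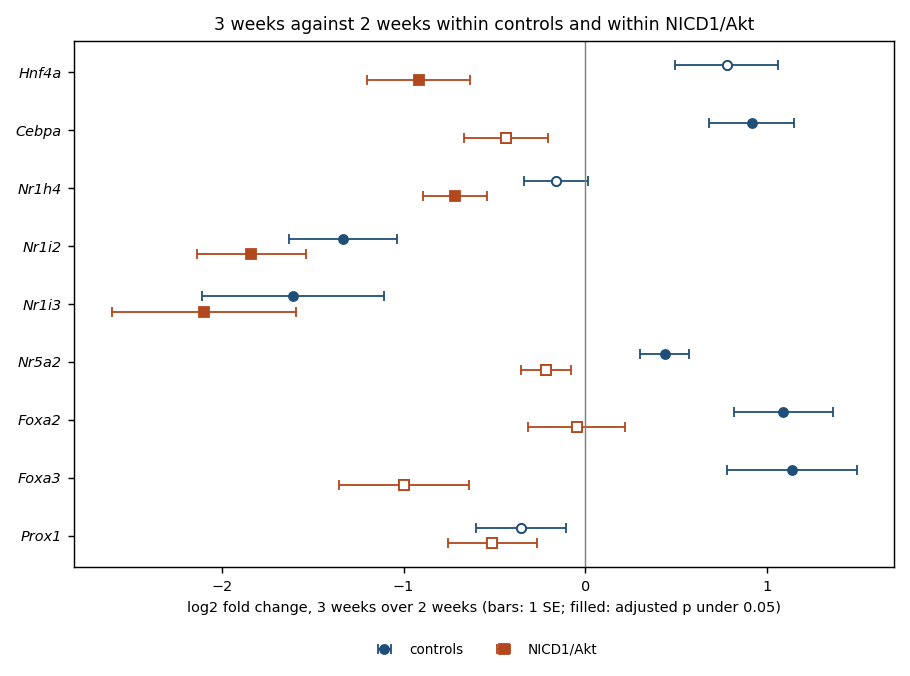
Log2 fold change of 3 weeks over 2 weeks for each factor within controls (circles) and within NICD1/Akt livers (squares), with bars of 1 SE; filled symbols passed adjusted p under 0.05. Nr1h4, Nr1i2, Nr1i3 and Prox1 lie left of 0 in both series, whereas Hnf4a, Cebpa, Nr5a2, Foxa2 and Foxa3 lie right of 0 in controls and left of 0 in NICD1/Akt livers.

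Within NICD1/Akt livers, 4 of the 9 factors were lower at 3 than at 2 weeks and 0 were higher, where 17.4% of all genes were lower. Nr1i3 fell by 2.10 ± 0.51 on the log2 scale (adjusted p = 0.0128) and Nr1i2 by 1.84 ± 0.30 (adjusted p = 0.0025), the 2 receptors that also fell in controls. Hnf4a fell by 0.92 ± 0.28 (adjusted p = 0.034) and Nr1h4 by 0.72 ± 0.17 (adjusted p = 0.0129). Foxa3 (-0.998 ± 0.36, adjusted p = 0.0583), Cebpa (-0.44 ± 0.23) and Prox1 (-0.51 ± 0.25) did not pass. Foxa2 stood at 30.8 ± 7.004 CPM at 2 weeks and 29.8 ± 1.82 at 3 weeks (log2 difference -0.05 ± 0.27). Without library 35, which was low in several members, 6 passed (25.6% of all genes were then lower), with Hnf4a at -1.21 (adjusted p = 0.00069), Foxa3 at -1.31 (adjusted p = 0.0055) and Cebpa at -0.63 (adjusted p = 0.0316). Without NICD1/Akt library 34, 2 of the 9 passed (10.2% of all genes were lower), and without NICD1/Akt library 2 of the 3-week group, 1 passed (9.46%).

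Levels of different members can be compared only per length, here as CPM per kilobase of all annotated exons of a gene (GENCODE M21). Hnf4a led in every group and Cebpa came second. In controls of 3 weeks Hnf4a was at 335 ± 67.1 CPM per kilobase (SD, n = 3), Cebpa at 211 ± 28.1, Foxa3 at 71.7 ± 23.9 and Nr1h4 at 45.8 ± 4.41, each step without overlap. The other 5 had means between 10.2 and 20.7, of which Prox1, the lowest (7.74 to 14.8), overlapped only with Foxa2 (10.9 to 25.5), while Nr1i2, Nr5a2, Foxa2 and Nr1i3 all overlapped. In NICD1/Akt livers of 3 weeks the set was compressed, with Hnf4a at 100.95 ± 15.2 and Cebpa at 78.7 ± 15.8, whose ranges overlapped, Nr1h4 at 24.3 ± 2.87 and the other 6 with means between 10.5 and 17.1. Foxa3 ranked above Nr1h4 in controls of that stage and below it in the tumors. At 2 weeks Nr1i3 came next after Cebpa in both groups (63.0 ± 35.4 in controls, 45.1 ± 20.4 in NICD1/Akt), while at 3 weeks it ranked 5 of 9 in controls and 9 of 9 in NICD1/Akt livers.

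Ratios of paired factors within a library do not depend on scaling. Hnf4a to Nr1h4 was at a log2 ratio of 3.88, 4.08 and 3.80 in controls of 3 weeks and of 3.13, 3.06 and 3.17 in NICD1/Akt livers, lower in every tumor library than in any control (difference -0.80). Foxa3 to Foxa2 was at 0.99, 2.97 and 1.08 in controls and at 0.34, 0.41 and -0.16 in NICD1/Akt livers (difference -1.48, and -0.84 without control 11). Cebpa to Cebpb, the C/EBP family member induced by inflammation and regeneration, was at 1.57, 0.76 and 1.68 in controls and at 1.78, 1.71 and 2.27 in NICD1/Akt livers (difference 0.58, and 0.30 without control 11). Cebpb itself fell at 3 weeks (log2 fold change -1.91 ± 0.18, adjusted p = 3.051e-05). These 3 ratios did not overlap between groups, which gives the smallest p of 0.1 that an exact two-sided permutation test of 3 against 3 allows (adjusted p = 0.267 over 8 comparisons). Nr1i3 to Nr1i2 overlapped at 3 weeks (difference -0.42, exact p = 0.2), and no ratio was without overlap at 2 weeks.

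Hepatocyte markers gave a second yardstick. All 9 tested markers (among them Fgb and Ttr) fell at 3 weeks, with a median log2 fold change of -1.57, and their summed level was 121020 to 127299 CPM in controls and 31585 to 42644 in NICD1/Akt livers. Each factor was therefore expressed as its log2 level minus the mean log2 level of these markers in the same library. On this scale Hnf4a differed between groups by less than its spread, at -2.02 ± 0.22 in controls and -2.04 ± 0.08 in NICD1/Akt livers of 3 weeks (SD, n = 3, exact p = 1). Foxa3 also overlapped between groups (difference -0.34, exact p = 0.4, and from -0.67 without NICD1/Akt library 2 to -0.12 without control 11 and -0.074 without NICD1/Akt library 3). The other 7 factors were higher relative to the markers in all 3 tumor libraries than in any control (exact p = 0.1, the smallest possible, adjusted p = 0.257 over 18 comparisons). On this scale 91.8% of all 13408 genes were higher without overlap, with a median difference of 1.65, so the count of 7 is a share below the background and Prox1 was the only member above that median. The differences were 1.91 for Prox1, 1.14 for Foxa2, 1.04 for Nr1i2, 0.995 for Nr5a2, 0.78 for Nr1h4, 0.62 for Nr1i3 and 0.27 for Cebpa. Without control 11 those of Foxa2 and Cebpa were 0.72 and 0.12, and without NICD1/Akt library 1 that of Nr1i3 was 0.39. At 2 weeks all 9 overlapped, with differences from -0.10 for Nr1h4 to 0.74 for Foxa2.

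**Figure D4:**
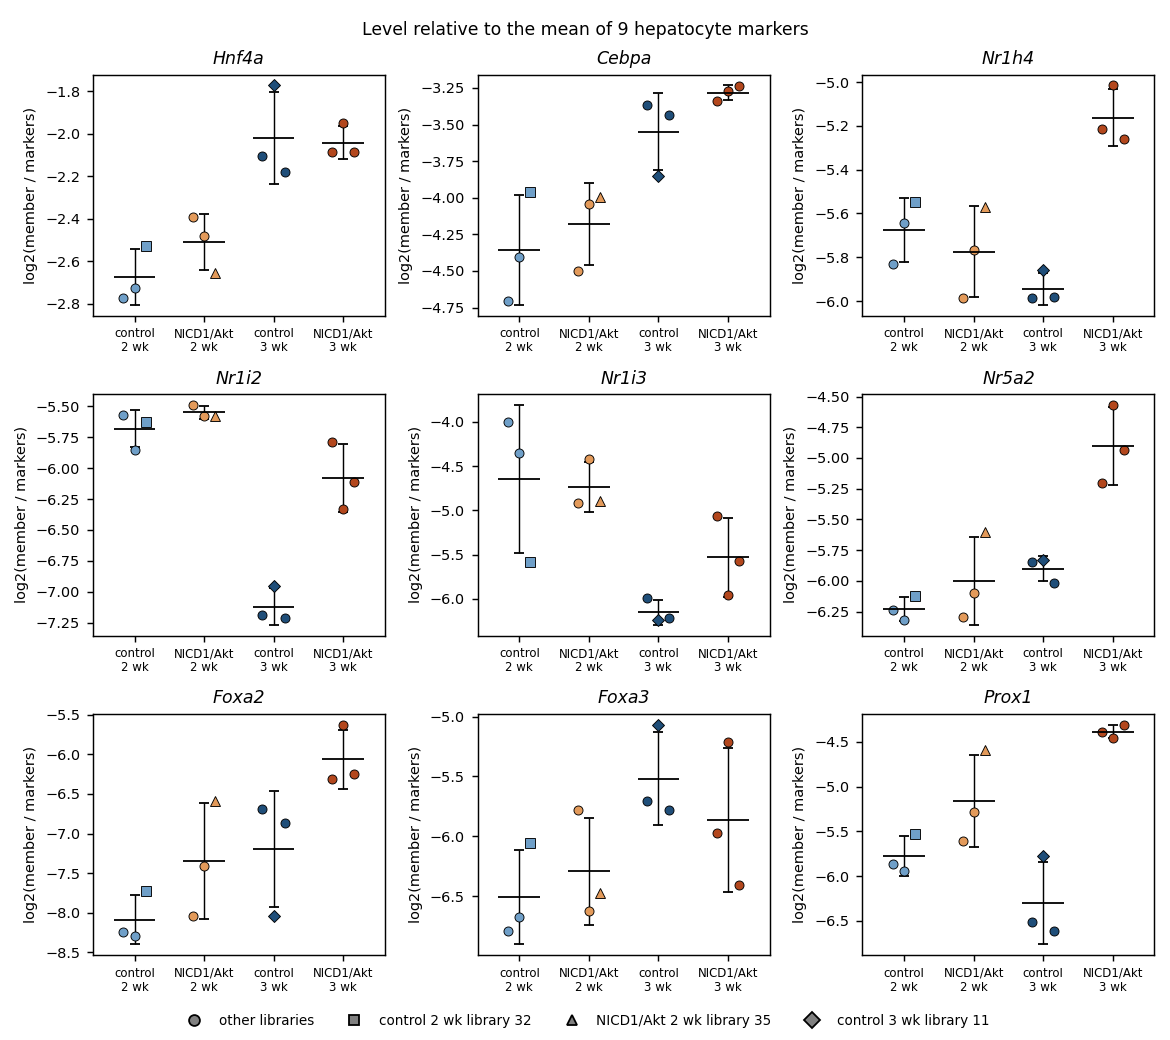
Log2 level of each factor minus the mean log2 level of 9 hepatocyte markers in the same library, by group; horizontal lines are means, bars 1 SD (n = 3), and the vertical axes differ between panels. At 3 weeks Hnf4a overlaps between groups (means -2.02 and -2.04), whereas Prox1 is 1.91 higher in NICD1/Akt livers, beside a median of 1.65 over all genes.

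The genes that these factors are known to control fell at 3 weeks in most cases, as did hepatocyte genes in general. Of the HNF4A target genes 8 of 8 fell (median log2 fold change -1.56), among them F9, a coagulation factor (-1.20 ± 0.11, adjusted p = 3.168e-05), Apob, the structural protein of very low density lipoprotein (-1.66 ± 0.18, adjusted p = 6.257e-05), and Apoc3 (-1.68 ± 0.18, adjusted p = 7.51e-05). Of the C/EBP alpha target genes 3 of 6 fell (median -1.25), namely Cps1 (-1.85 ± 0.20), the entry enzyme of the urea cycle, Alb (-1.71 ± 0.26) and G6pc (-1.88 ± 0.33), which releases free glucose. Tat, Pck1 and Gys2 did not pass, with -0.79, -0.18 and -0.30. FOXA target genes fell in 4 of 6 (median -1.24), and Tat and Pck1 are on this list too. Its called genes with the smallest adjusted p were Ttr (-1.69 ± 0.22), Igfbp1 (-2.89 ± 0.39) and Slc2a2 (-1.58 ± 0.22), the hepatocyte glucose transporter.

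Targets of the ligand-activated receptors followed the same direction. PXR and CAR target genes fell in 6 of 6 tested (median -2.04), with the smallest adjusted p for Cyp2c29 (-2.80 ± 0.15, adjusted p = 1.711e-06) and Ces2a (-2.39 ± 0.24, adjusted p = 4.423e-05), with Cyp3a11 at -1.68 ± 0.19. By size of change Cyp2b10 was furthest down, with controls at 1.67 to 4.004 CPM and tumor libraries between 0 and 0.114, few reads in either. Nr1i2 itself did not pass at this stage. FXR target genes fell in 5 of 6 tested (median -1.66), among them Baat, which conjugates bile acids (-1.72 ± 0.10, adjusted p = 2.496e-06), Abcb11, the bile salt export pump (-2.02 ± 0.16, adjusted p = 1.255e-05), and Abcb4 (-1.49 ± 0.15, adjusted p = 5.447e-05). LRH-1 target genes fell in 4 of 6 (median -1.33), among them Scarb1 (-1.25 ± 0.12) and Gls2 (-1.66 ± 0.29). Nr0b2 (SHP, the repressor that FXR induces and that restrains LRH-1) is on both lists and did not pass (0.50 ± 0.80). It was at 1.90 and 2.75 CPM in controls 10 and 12, at 24.9 in control 11 and at 6.37 to 16.3 in NICD1/Akt livers, so control 11 lay above all tumors and the other two below them, and without control 11 it passed as higher. Against the 33.1% of all genes that fell, each of these target lists had a larger share, but hepatocyte markers fell in 9 of 9. The lists are not separate, since Alb is also a C/EBP alpha target and Ttr a FOXA target.

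Of 11 partners and coregulators of the nuclear receptors, 4 fell with TMM scaling (median -0.42), whereas with library size only 0 fell and 5 rose (median 0.28). Among them were Rxra, the shared partner of FXR, PXR and CAR (-0.99 ± 0.20, adjusted p = 0.0018), and the coactivators Ncoa1 (-0.42 ± 0.08) and Ncoa3 (-0.63 ± 0.08). Of 15 other liver-enriched transcription factors 10 fell with TMM (median -0.79), whereas with library size only 5 fell and 4 rose (median -0.09). The smallest adjusted p were those of Nr1h3 (LXR alpha, -1.30 ± 0.11, adjusted p = 1.482e-05), Rora (-1.54 ± 0.14, adjusted p = 2.296e-05) and Cebpb. Both medians lay below that of all genes under library size only (0.77). Over all genes, 33.1% fell with TMM, so the fall of 4 of the 11 partners was near that share. With library size only, 9.6% of all genes fell and 67.7% rose.

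**Figure D5:**
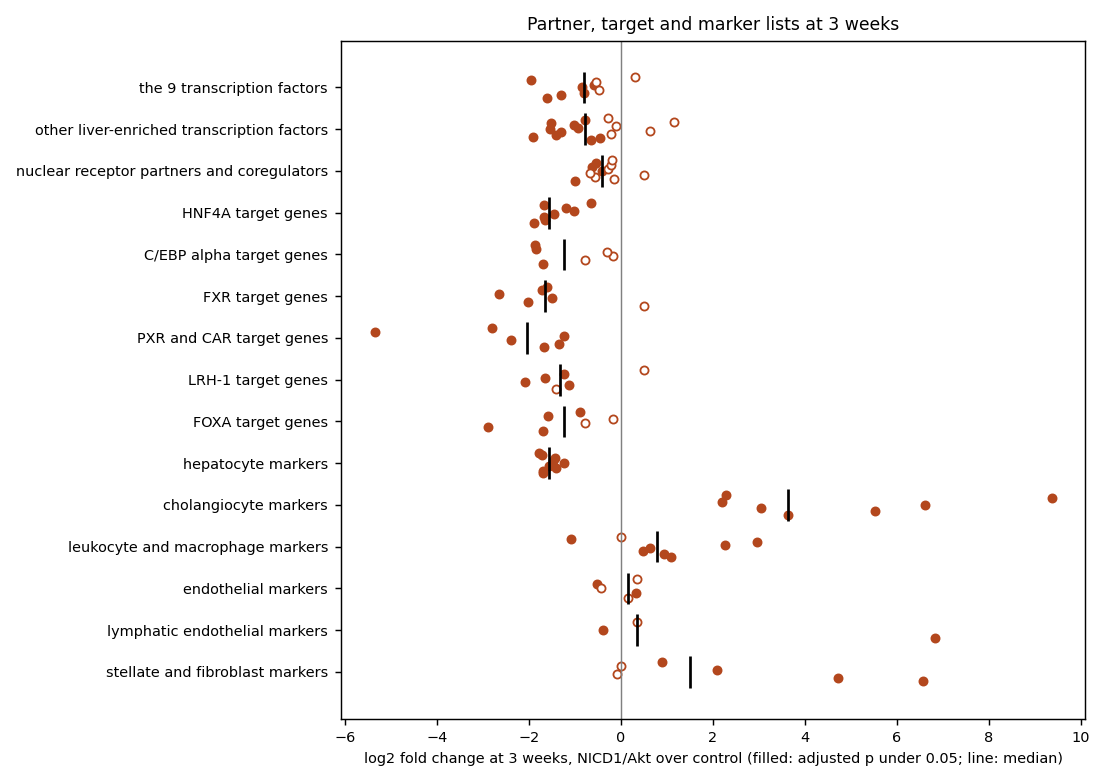
Log2 fold change at 3 weeks (NICD1/Akt over control) of every tested gene in each list; filled points passed adjusted p under 0.05 and vertical lines are list medians. Medians of the target lists lie between -1.24 (FOXA) and -2.04 (PXR and CAR), near the hepatocyte markers (-1.57), and the cholangiocyte markers lie at 3.63.

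Other cell types moved beside the factors at 3 weeks. Cholangiocyte markers rose in 7 of 7, among them Spp1 (6.61 ± 0.21) and Cftr, which was at 0 to 0.174 CPM in controls and 47.6 to 71.4 in NICD1/Akt livers. Stellate and fibroblast markers rose in 4 of 6 (summed level 190 to 269 CPM in controls and 1937 to 2576 in NICD1/Akt), among them Pdgfrb, Col1a1 and Col3a1. Dcn and Lrat did not pass (log2 fold changes -0.096 and -0.0095). Most of the tumor sum was collagen, with mean Col1a1 at 1115 CPM and Col3a1 at 1026 in NICD1/Akt livers (12.7 and 42.5 in controls). Leukocyte and macrophage markers rose in 6 of 8 tested (201 to 264 CPM against 351 to 488), with Itgam and Lyz2 higher and Clec4f, a Kupffer cell gene, lower. The rise of this sum rests on Lyz2, whose mean went from 51.8 CPM in controls to 230 in NICD1/Akt livers. Mean Clec4f went from 104 to 45.0 CPM, and Cd3e did not pass (log2 fold change 0.0015). Endothelial markers were mixed, with Cdh5 higher and Stab2 lower of 5 (3 higher and 0 lower with library size only, and no gene higher without control 10 or 11 or NICD1/Akt library 1), and sums of 223 to 263 CPM against 179 to 237. The part of these cells in the levels of Foxa2, Prox1 and the other factors was not tested.

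At 2 weeks none of the genes on these lists passed in any setting tried. Medians were -0.34 for HNF4A targets, -0.50 for C/EBP alpha targets, -0.28 for FXR targets, -0.19 for PXR and CAR targets, -0.55 for LRH-1 targets and -0.35 for FOXA targets, beside 0.01 over all genes. Hepatocyte markers had a median of -0.23 and cholangiocyte markers of 1.91. These medians turned on single libraries. Without control 32 they were -0.55 for HNF4A, -0.67 for C/EBP alpha, -0.48 for FXR, -0.40 for PXR and CAR, -0.82 for LRH-1 and -0.48 for FOXA targets, with hepatocyte markers at -0.36 and cholangiocyte markers at 4.03. Without NICD1/Akt library 35 they were -0.068, -0.21, 0.042, -0.10, -0.29 and -0.13 in the same order of target lists, with hepatocyte markers at 0.029 and cholangiocyte markers at 0.78, so the signs of FXR targets and hepatocyte markers turned.

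The profiles of the factors over the 12 libraries were compared by the root mean square difference of their log2 CPM, each centred on its own mean. Foxa3 and Cebpa were each 0.33 from Hnf4a, the closest pairs along with Nr1h4 and Nr5a2 (0.33), and Foxa2 and Nr1i3 were the farthest apart at 1.37. Outside the members, among 10343 genes whose mean reached 5 CPM, the nearest to Hnf4a were Slc25a32 (0.16) and Acaa2 (0.16), both mitochondrial. Cebpa was nearest to Cflar (0.14) and Kynu (0.16), Nr1h4 to Mfn2 (0.075) and Rnf149 (0.087), and Nr5a2 to Slc35a3 (0.074) and Slc39a9 (0.077). Kynu encodes an enzyme of tryptophan breakdown and Mfn2 a protein of mitochondrial fusion. Nr1i2 was nearest to Rasgrp2 (0.22) and Pla1a (0.23), Nr1i3 to Papss2 (0.32) and Slc1a2 (0.35), and Foxa3 to Dnmbp (0.26) and Tesk2 (0.30). Foxa2 was nearest to Sav1 (0.22) and Sowahc (0.22) and Prox1 to Cxxc5 (0.18) and Zfp574 (0.18). The same 12 libraries carry all of these profiles, so the distances describe this set of samples and have no test.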

How the data were processed

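Poly(A) RNA from 12 mouse liver libraries was prepared with a stranded kit and sequenced on a NextSeq2000. The deposited files hold raw read counts per Ensembl gene, made by the authors in one table per stage. The methods name alignment to mm10, whereas the submitters' processing notes name GRCm39 with STAR 2.7 and Subread 2.0.6. These could not be reconciled, so coordinates come from RefSeq on GRCm38.p6 and none from the counts.

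Symbols came from an identifier table. Tests used edgeR 4.0.16 in R 4.3.3: TMM scaling, filterByExpr, quasi-likelihood F-test, Benjamini-Hochberg adjustment over all genes tested. Each stage was fitted on its 6 libraries and contrasts between stages on all 12. CPM levels were scaled over all 12, so their ratios differ somewhat from the fold changes of a stage. For the same reason, the contrast between stages is not the exact difference of the separate stage effects. A standard error is the log2 fold change divided by the square root of F. Ratios used a prior count of 0.5 and exact two-sided permutation tests (SciPy). Alternatives were edgeR's likelihood ratio test, DESeq2 1.42.0, other scalings and filters, pooled fits or controls, and leaving out each library. The fits were also run on simulated counts in which a small set of genes rose and the rest did not change. Such counts do not test the scaling, since many genes changed in both directions at 3 weeks. Named genes were all members, the plasmid genes, ratio genes, the 2 nearest profiles per member and, per list, up to 3 genes ranked by adjusted p at 3 weeks. Some genes that this rule names are not reported here. Genes of the target and marker lists that did not pass, the Y-linked gene, Cyp2b10 and the levels of Nr0b2 were named after their values were seen. The members and lists were chosen with earlier results of these data known. Libraries held 13136892 to 19594839 counts. Replicate pairs within a group differed by a mean chi-square per gene of 4.77 to 130. Of the listed genes, Tf had no matched identifier, and Slc51a, Cyp2c55, Cd79a and Mmrn1 were below the filter at 3 weeks.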

Additional observations from a re-analysis of the deposited data

Results flagged for a closer look

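The NICD1/Akt effect differed between 3 and 2 weeks, by the test of the difference itself, for Foxa3 (log2 difference -2.13), Hnf4a (-1.70), Cebpa (-1.35), Foxa2 (-1.14) and Nr5a2 (-0.65). In each of the 5, the control level was higher at 3 than at 2 weeks, with Hnf4a just short of the threshold there (adjusted p = 0.0507), and within NICD1/Akt livers only Hnf4a passed as lower (adjusted p = 0.034).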

How the results depend on the processing

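At 3 weeks the count of factors past the threshold stayed within 1.5 times of 6 under every alternative, with 5 to 8 when a library was left out, and at 2 weeks it was 0 throughout. This count pools both directions. Over all genes, 29.6% to 31.9% were lower and 36.1% to 38.1% higher when a library was left out. With library size only, the falls were those of Foxa3, Hnf4a and Cebpa alone. Prox1 was counted as higher there and without control 11. Foxa3, Hnf4a and Cebpa fell at 3 weeks in every setting. For the difference between the stages, 3 of the factors passed with upper quartile factors, 2 with library size only, and 3 to 5 when a library was left out (3 without control 32 or 10, or without NICD1/Akt 34, 1 or 2). Of all genes, 8.13% were then lower and 19% higher with upper quartile factors, and 2.15% and 25.5% with library size only. When a library was left out, 8.58% to 25.1% of all genes were lower and 8.59% to 23.7% higher. Within NICD1/Akt, 2 passed with library size only and 1 to 6 when a library was left out (2 without library 34, 1 without library 2). There 6.8% of all genes were lower and 24.8% higher with library size only. When a library was left out, these shares were 9.44% to 25.6% and 4.77% to 22.4%. Between the controls 3 to 5 passed when a library was left out (3 without library 31). In those fits 13.8% to 17.5% of all genes were lower and 13.2% to 15.2% higher.

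Signs turned mainly for small values. With library size only, log2 fold changes were 0.20 for Nr1i2, 0.12 for Nr5a2 and 0.17 for Foxa2 at 3 weeks, 0.10 for Hnf4a, 0.080 for Cebpa, 0.050 for Nr1i2 and 0.14 for Nr5a2 at 2 weeks, 0.092 for Nr1h4, 0.15 for Nr1i2, 0.14 for Nr1i3 and 0.45 for Prox1 in the difference between stages, and 0.043 for Cebpa, 0.24 for Nr5a2 and 0.37 for Foxa2 within NICD1/Akt. Against all 6 controls they were -0.011 for Prox1 at 3 weeks and 0.42 for Nr1i2, 0.11 for Nr1i3, -0.14 for Foxa2 and -0.60 for Foxa3 at 2 weeks. Upper quartile factors gave 0.063 for Prox1 in the difference between stages. Foxa2 within NICD1/Akt was 0.0054 with DESeq2 and 0.0051 with its size factors. Nr1i3 relative to Alb and Apoa1 alone was 0.0010 at 2 weeks.

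When a library was left out at 2 weeks, log2 fold changes ranged from -0.22 to 0.25 for Hnf4a, from -0.33 to 0.11 for Cebpa, from -0.26 to 0.14 for Nr1i2, from -0.16 to 0.040 for Nr5a2 and from -0.43 to 0.37 for Foxa3. The difference between stages for Prox1 ranged from -0.33 to 0.20, and Foxa2 within NICD1/Akt from -0.22 to 0.079. The log2 ratio of Nr1i3 to Nr1i2 at 2 weeks ranged from -0.72 to 0.043. Relative to hepatocyte markers, Hnf4a at 3 weeks ranged from -0.10 to 0.10, and at 2 weeks Nr1h4 from -0.20 to 0.0053, Nr1i3 from -0.56 to 0.23 and Foxa3 from -0.042 to 0.44. The causes of these turns were not tested.

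Over all genes, leaving out NICD1/Akt library 35 raised the calls within NICD1/Akt from 1530 higher and 2402 lower to 3125 and 3564, and leaving out library 33 lowered them to 668 and 1322. Library size only gave 3520 higher and 297 lower for the difference between stages, 3435 and 940 within NICD1/Akt, and 1285 and 3058 between the controls, against 2406 and 2816 with TMM. Of 675 repeated member fold changes, 568 kept their direction and side of the threshold, 53 fell below it, 18 passed it and 36 changed sign. No paired analysis was possible because the groups share no replicate numbers.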
